A study of Mus musculus with 6 samples.

Results

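The genes described here are 9 genes that mark microglia, the resident macrophages of the brain. They were chosen by name, with earlier results of these data known. Among them are *C1qa*, *C1qb* and *C1qc*, which encode the chains of the complement starter C1q, and the lipid-sensing receptor gene *Trem2*. The others are the homeostatic markers *Tmem119*, *P2ry12* and *Cx3cr1*, the growth factor receptor gene *Csf1r*, and *Aif1*, which encodes the actin-binding protein Iba1. All 9 were among the 52390 genes listed, and all 9 passed the filter on low counts that left 21844 genes for testing.

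Gene counts came from brain tissue of 3 control and 3 *AP1AR-DT* OE mice, and the paper places the tissue in the medial prefrontal cortex (mPFC) in its results and calls it cortical tissue in its methods. Per the study's methods, all were C57BL/6 J males, injected into the mPFC at 8 weeks of age with a recombinant adeno-associated virus (rAAV). In the *AP1AR-DT* OE mice the virus carried the human lncRNA *AP1AR-DT* (AC109347.1 in the labels) under control of the human synapsin I promoter, a promoter used to reach neurons. EGFP on the same vector was driven by a CMV promoter. Controls received the empty vector, so both groups had surgery and virus and no uninjected mouse was included. The transgene was directed to neurons, and no microglia were sorted, so the values are those of whole tissue. The level of the transgene was not analysed here. Libraries held 42061721 to 54668294 counts, and mitochondrial genes took 7.20 to 9.86% of the counts in controls and 5.75 to 6.80% in *AP1AR-DT* OE libraries. The table numbers the *AP1AR-DT* OE columns differently from the labelled mice, so the letters A, B and C are used for them. Control libraries keep the labelled numbers 1, 2 and 3.

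Microglia survey the tissue with motile processes, clear debris and remove synapses. Their homeostatic state is kept by neuronal and stromal signals, among them Cx3cl1 acting on Cx3cr1, Csf1 and Il34 acting on Csf1r, and TGF-β, and it is marked by high *P2ry12*, *Tmem119* and *Cx3cr1*. C1q, made in the brain mainly by microglia, starts the classical complement pathway and tags synapses for removal, and Trem2 with its adaptor Tyrobp drives the shift to phagocytic and disease-associated states.

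In bulk tissue, fewer cells of a type and less RNA per cell cannot be told apart, so every level below is an amount of RNA in the tissue. The libraries also differed in their levels of marker genes of other brain regions. Choroid plexus markers stood 3.85 log2 units above their mean over libraries in control 3, where thalamic markers stood 1.84 above theirs, hypothalamic markers stood 2.02 above in control 2, and striatal markers stood 1.5 above in *AP1AR-DT* OE library A. Results below are therefore also given without single libraries.

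The 9 genes did not move as a block. The 3 C1q chains, *Trem2* and *Tmem119* were higher in *AP1AR-DT* OE mice by the criterion of the study (*P* under 0.05 and |Log2FC| above 0.32, edgeR quasi-likelihood test), with 1.32-fold to 1.45-fold differences. None was lower by this criterion. *Csf1r* and *Aif1* had smaller positive differences that did not pass, *Cx3cr1* had almost the same mean in both groups, and *P2ry12* had a negative difference that did not pass and turned positive with a correction for GC content. Of all genes tested, 5.10% were called higher and 7.15% lower by the same criterion, so 5 of 9 stands beside 5.10% for higher calls, although the 9 genes share the same libraries and their values are not independent of each other. None of the 9 passed edgeR's Benjamini-Hochberg adjusted *P* under 0.05, which 6 genes or 0.0275% of those tested did, and the adjusted *P* of the 9 genes ran from 0.30 to 0.998. The median Log2FC of the 9 genes was 0.40, beside -0.014 over all genes tested.

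The 5 calls did not hold with every library left out, nor with a correction for the base composition of the genes. Without control 2, without *AP1AR-DT* OE library A or without library B, 0 of the 9 genes were called, and without control 1 only *C1qc* and *Trem2* were. All 5 were called without control 3 or without library C. Over the whole table, 1113 of 21844 genes were called higher with all libraries. This became 994 of 22511 without control 2, 663 of 22543 without library A and 594 of 22582 without library B. It was 1441 of 22643 without control 1, 1269 of 22502 without control 3 and 1623 of 22542 without library C. The median Log2FC of the 9 was 0.33 without control 2, 0.24 without library A and 0.41 without library B, each from fewer mice. With each library's counts corrected for a smooth dependence on GC content, 0 of the 9 were called, the median Log2FC was 0.21, and the background of calls was 2.77% higher and 4.40% lower.

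**Figure D1:**
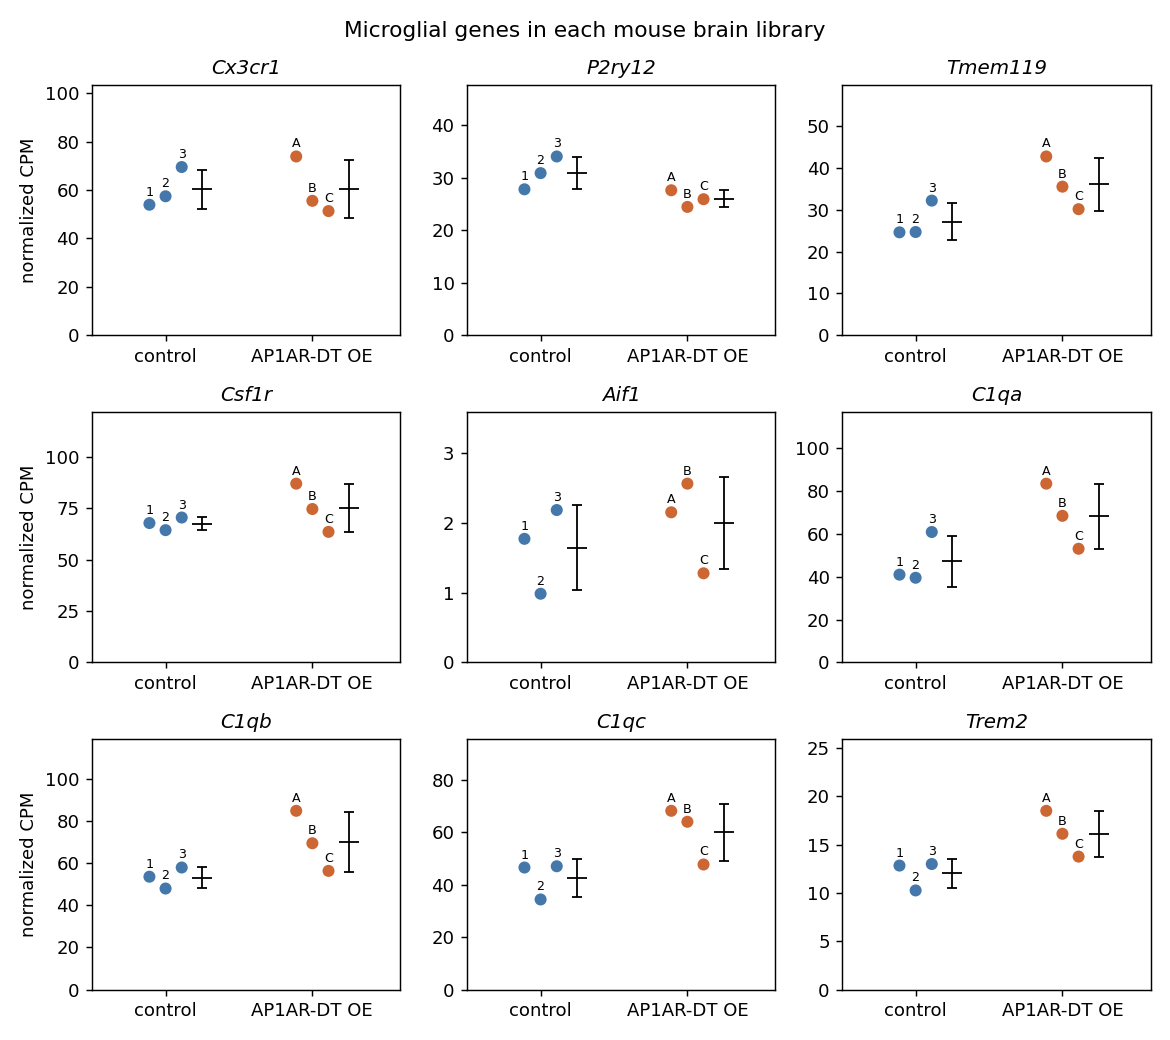
Normalized CPM (counts after every library was brought to the same TMM-adjusted total, vertical axes from 0) of the 9 microglial genes in control libraries 1 to 3 (blue) and *AP1AR-DT* OE libraries A to C (orange), with group means and SD beside the points (n = 3 mice per group). Library A is the highest point for 7 of the 9 genes, control 2 is the lowest for 5, and C is the lowest *AP1AR-DT* OE point for 8.

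C1q is assembled from the A, B and C chains, which *C1qa*, *C1qb* and *C1qc* encode side by side on the minus strand of chromosome 4 within 18675 bp (GRCm38, C1qa chr4:136895917-136898803, C1qb chr4:136880129-136886187, C1qc chr4:136889804-136893065). *C1qa* was measured at 40.9, 39.5 and 60.8 normalized CPM in controls 1, 2 and 3, and at 83.3, 68.3 and 53.0 in *AP1AR-DT* OE libraries A, B and C. The groups overlapped, since library C lay below control 3. The group means were 47.1 ± 11.9 and 68.2 ± 15.2 CPM (SD, n = 3 each). The Log2FC was 0.54 ± 0.22 (SE), with an edgeR adjusted *P* of 0.325 (unadjusted 0.047).

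*C1qb* showed 53.5, 47.9 and 57.9 CPM in controls and 84.8, 69.4 and 56.3 in *AP1AR-DT* OE mice. Its 2 highest values were libraries A and B, while C lay inside the control range. The Log2FC was 0.40 ± 0.16 with an edgeR adjusted *P* of 0.319 (unadjusted 0.041).

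*C1qc* showed 46.6, 34.4 and 47.1 CPM in controls and 68.2, 64.0 and 47.7 in *AP1AR-DT* OE mice. Here the groups did not overlap, but the margin between library C and control 3 was under 1 CPM. The Log2FC was 0.49 ± 0.18 with an edgeR adjusted *P* of 0.30 (unadjusted 0.029). The exact permutation test gave *P* = 0.1, the smallest that 3 mice against 3 allow.

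The proportions of the 3 chains varied between libraries and did not separate the groups. Per kilobase of transcript, their summed level was 127, 111 and 151 CPM per kb in controls and 215, 183 and 142 in *AP1AR-DT* OE mice. Of this sum *C1qa* made up 30.9 to 38.8% over the 6 libraries, *C1qb* 34.9 to 39.8% and *C1qc* 25.9 to 30.4%. The *C1qa* to *C1qb* ratio was 0.764, 0.824 and 1.05 in controls and 0.983, 0.985 and 0.941 in *AP1AR-DT* OE mice, and the *C1qa* to *C1qc* ratio ran from 0.879 to 1.29 within the controls. None of the 3 within-library ratios between chains separated the groups. The summed C1q level in control 3 was above that in library C, so the sum also overlapped between groups.

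The promoters of *C1qb*, *C1qc* and *P2ry12* are shown because each holds the core site of PU.1, the transcription factor of the myeloid lineage. Sequences are from RefSeq on GRCm38.p6, 250 bases before to 50 after the RefSeq start of the gene and written 5′ to 3′ along the gene. The RefSeq starts differ from the gene spans printed here, which are from GENCODE, and the *P2ry12* window lies outside its GENCODE span. Capitals mark the core AGGAAGT or, on the other strand, ACTTCCT.
C1qb, chr4:136886151-136886450, minus strand: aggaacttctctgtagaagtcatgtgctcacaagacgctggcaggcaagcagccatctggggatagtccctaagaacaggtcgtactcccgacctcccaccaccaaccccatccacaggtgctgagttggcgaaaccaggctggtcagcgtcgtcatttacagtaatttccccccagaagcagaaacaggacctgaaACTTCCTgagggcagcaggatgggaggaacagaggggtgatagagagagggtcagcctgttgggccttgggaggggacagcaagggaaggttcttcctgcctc
C1qc, chr4:136892865-136893164, minus strand: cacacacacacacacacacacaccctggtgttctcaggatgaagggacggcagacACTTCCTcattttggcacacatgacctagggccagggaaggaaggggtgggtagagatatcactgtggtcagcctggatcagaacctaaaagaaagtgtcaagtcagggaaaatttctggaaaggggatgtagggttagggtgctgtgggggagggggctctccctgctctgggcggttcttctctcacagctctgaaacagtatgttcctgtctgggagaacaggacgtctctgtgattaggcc
P2ry12, chr3:59262936-59263235, minus strand: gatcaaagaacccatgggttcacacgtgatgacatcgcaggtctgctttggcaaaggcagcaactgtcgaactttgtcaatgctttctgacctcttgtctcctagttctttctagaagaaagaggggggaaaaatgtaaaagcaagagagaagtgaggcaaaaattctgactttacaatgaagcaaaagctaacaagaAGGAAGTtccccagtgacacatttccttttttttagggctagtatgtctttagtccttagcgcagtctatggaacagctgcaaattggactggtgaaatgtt
Counted from the RefSeq start, the first base of the match lies at -53 in *C1qb*, -195 in *C1qc* and -52 in *P2ry12*. The core was found on either strand in 9.35% of 32851 promoters of the same length, and in 3 of the 6 microglial promoters at hand, the others being those of *Cx3cr1*, *Aif1* and *Trem2*. The longer GAGGAAGT, which contains the core, was present in 3.20% of all promoters and in 1 of the 6, that of *C1qc*. These matches are letters in a window and were chosen with the sequences in view. Promoters of *C1qa*, *Tmem119* and *Csf1r* were not used here.

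*Trem2* encodes a receptor for lipids and lipoproteins (GRCm38 chr17:48346401-48354147, plus strand). Its level was 12.8, 10.3 and 13 CPM in controls and 18.5, 16.1 and 13.8 in *AP1AR-DT* OE mice. All 3 *AP1AR-DT* OE libraries lay above all controls, again with library C close to the control range. Its Log2FC was 0.42 ± 0.16, with *P* = 0.036 and adjusted *P* = 0.312 by edgeR and an exact permutation *P* of 0.1. Of the 9 genes, 3 had groups that did not overlap, *Trem2* and *C1qc* with the *AP1AR-DT* OE mice higher and *P2ry12* with them lower, a separation in either direction found in 22.4% of all genes tested. With the GC correction, which uses the longest transcript, the Log2FC of *Trem2* became 0.37, with an edgeR adjusted *P* of 0.550 (unadjusted 0.055, and 0.189 to 0.749 adjusted over all 18 fits), and its groups remained apart. The result depended on the transcripts used, since with GC content averaged over all transcripts of a gene, 56.2% for *Trem2* against 51.0% for its longest, the Log2FC was 0.26 (unadjusted edgeR value 0.126).

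*Tyrobp*, the gene of the adaptor that carries the signal of Trem2, was measured at 6.69, 4.44 and 5.25 CPM in controls and 8.30, 8.25 and 5.64 in *AP1AR-DT* OE mice. It did not pass the criterion (Log2FC 0.44 ± 0.23, edgeR adjusted *P* = 0.401). *Apoe*, which encodes a lipoprotein ligand of Trem2 made mainly by astrocytes, averaged 2712 ± 248 CPM in controls and 3236 ± 242 in *AP1AR-DT* OE mice, with no overlap between groups and an edgeR adjusted *P* of 0.358 (Log2FC 0.26). Its Log2FC was 0.021 with the GC correction.

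*Tmem119* encodes a membrane protein used to tell microglia from other macrophages (chr5:113793729-113800516, minus strand). It was measured at 24.6, 24.7 and 32.2 CPM in controls and 42.7, 35.5 and 30.1 in *AP1AR-DT* OE mice. Library C lay below control 3, so the groups overlapped. The Log2FC was 0.41 ± 0.17, with an edgeR adjusted *P* of 0.323 (unadjusted 0.046). With the GC correction it was 0.19, with an edgeR adjusted *P* of 0.710 (0.20 to 0.755 over all 18 fits).

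*P2ry12* encodes the purinergic receptor that steers microglial processes towards released nucleotides (chr3:59216272-59262871, minus strand). Controls gave 27.8, 30.9 and 34.1 CPM and *AP1AR-DT* OE mice 27.6, 24.4 and 25.9. All *AP1AR-DT* OE libraries lay below all controls, but control 1 and library A differed by less than 1 CPM. The Log2FC was -0.25 ± 0.12 with *P* = 0.066 and adjusted *P* = 0.352 by edgeR, and the exact permutation *P* was 0.1. Its sign changed to a Log2FC of 0.06 with the GC correction, and its groups then overlapped. *P2ry12* held 1131 to 1701 counts per library and shares 9 exonic bases with *Med12l* on the opposite strand.

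*Cx3cr1* encodes the receptor for the neuronal chemokine Cx3cl1 (chr9:119901616-120069879, minus strand). It was measured at 53.9, 57.4 and 69.5 CPM in controls and 73.9, 55.6 and 51.3 in *AP1AR-DT* OE mice. The highest and the lowest value were both from *AP1AR-DT* OE libraries, A and C. Group means were 60.3 ± 8.2 and 60.3 ± 12 CPM, and the Log2FC was -0.0011 ± 0.17 (edgeR adjusted *P* = 0.998). Over all 18 fits it lay between -0.17 and 0.13, so neither direction was held.

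*Cx3cl1*, the ligand gene, was called higher in *AP1AR-DT* OE mice, at 556, 353 and 434 CPM in controls and 657, 629 and 533 in *AP1AR-DT* OE mice. Its groups overlapped by control 1 and library C. The Log2FC was 0.44 ± 0.18 with an edgeR adjusted *P* of 0.319. It was not called with the GC correction (0.25), without control 2 or 3 or without library A or B.

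*Csf1r* encodes the receptor on which microglial survival depends (chr18:61100598-61132149, plus strand). Controls gave 67.8, 64.3 and 70.4 CPM, the narrowest control range of the 9 genes on a log scale, and *AP1AR-DT* OE mice 86.9, 74.6 and 63.5. Libraries A and B lay above all controls and library C below all of them. The Log2FC of 0.15 ± 0.13 did not pass the test (edgeR adjusted *P* = 0.590). *Csf1r* shares 873 exonic bases with *Hmgxb3* on the opposite strand, and whether the counting used strand is not given in the sources used here, so some of its counts could belong to that gene.

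Of the ligand genes of Csf1r, *Il34*, which neurons express, was called higher and *Csf1* was not. *Il34* was measured at 24.6, 18.0 and 14.5 CPM in controls and 33.0, 32.9 and 20.6 in *AP1AR-DT* OE mice (Log2FC 0.60 ± 0.25, edgeR adjusted *P* = 0.328). Its groups overlapped, and it was not called with the GC correction (0.41), the length correction, without control 2 or 3 or without library A or B. *Csf1* ran from 25.1 to 32.4 CPM in controls and from 23.9 to 28.4 in *AP1AR-DT* OE mice (Log2FC -0.14, edgeR adjusted *P* = 0.639). *Tgfb1*, the gene of the cytokine that maintains microglial identity, had a Log2FC of 0.50 ± 0.23 that did not pass (edgeR adjusted *P* = 0.348).

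*Aif1*, whose protein Iba1 is the standard stain for microglia (chr17:35170991-35176068, minus strand), had the fewest counts of the 9 genes, 49 to 138 per library. Its level was 1.77, 0.984 and 2.18 CPM in controls and 2.15, 2.56 and 1.28 in *AP1AR-DT* OE mice. The groups overlapped widely, and the Log2FC of 0.28 ± 0.40 carried the largest standard error of the 9 (edgeR adjusted *P* = 0.762).

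Per kilobase of the longest transcript, the 9 genes fell into 3 tiers of level. The chains of C1q led with means over the 6 libraries of 56.7 ± 12.3 (*C1qb*), 55.4 ± 16.2 (*C1qa*) and 42.7 ± 10.4 CPM per kb (*C1qc*). *Csf1r* at 15.2 ± 1.85, *Tmem119* at 14.1 ± 3.08, *Cx3cr1* at 13.4 ± 2.04 and *P2ry12* at 12.1 ± 1.49 CPM per kb followed, and *Trem2* at 2.94 ± 0.60 and *Aif1* at 2.08 ± 0.68 were lowest. Neighbours within the upper and the middle tier differed by less than the larger of their SDs, and the ranges of *Trem2* (2.14 to 3.87) and *Aif1* (1.12 to 2.93) overlapped. The lowest C1q value of any library, 28.6 CPM per kb for *C1qc* in control 2, was above the highest value of the middle tier, 19.0 for *Tmem119* in library A. The tiers depend on the annotated length, since a gene whose longest transcript is not the one expressed is understated.

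**Figure D2:**
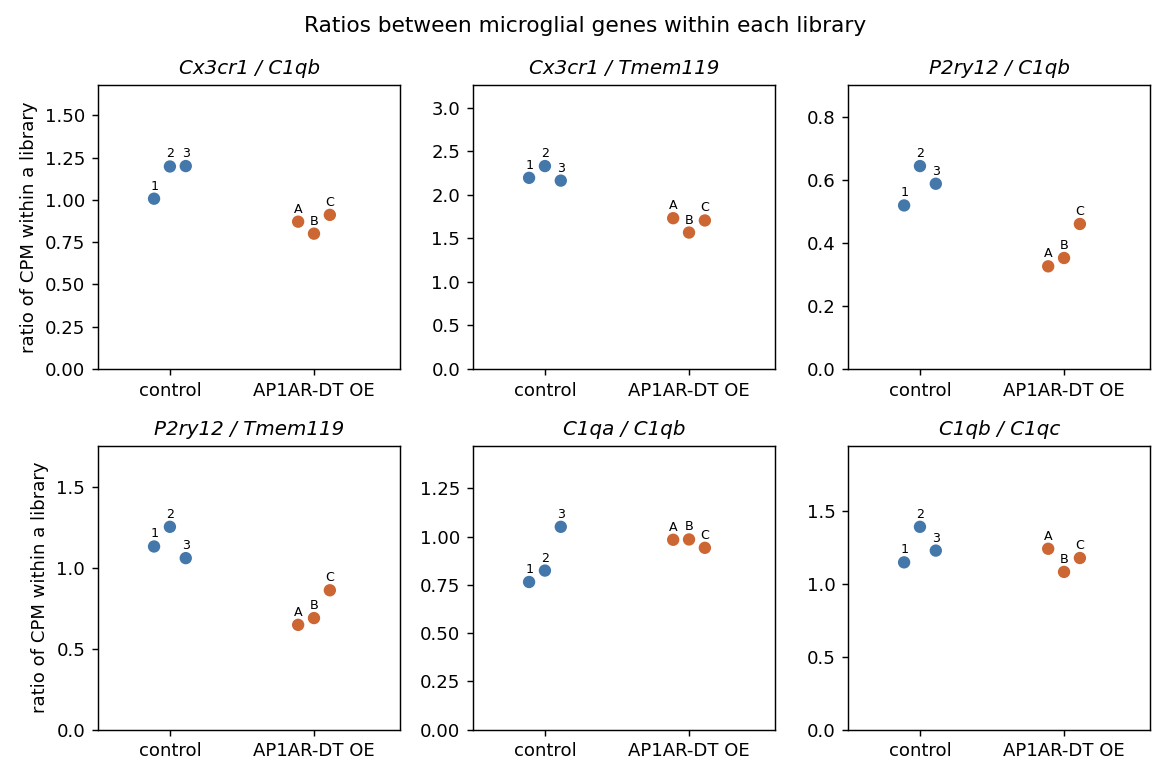
Ratios of normalized CPM between pairs of microglial genes within each library (vertical axes from 0), controls 1 to 3 in blue and *AP1AR-DT* OE libraries A to C in orange. The ratios of *Cx3cr1* and *P2ry12* to *C1qb* and *Tmem119* are lower in every *AP1AR-DT* OE library than in any control, while the ratios between chains of C1q overlap.

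Ratios within a library cancel anything that scales all microglial RNA together. *Cx3cr1* relative to *Tmem119* was 2.19, 2.33 and 2.16 in controls and 1.73, 1.57 and 1.70 in *AP1AR-DT* OE mice. *Cx3cr1* relative to *C1qb* was 1.01, 1.20 and 1.20 in controls and 0.871, 0.801 and 0.912 in *AP1AR-DT* OE mice. Both ratios were thus lower in all 3 *AP1AR-DT* OE libraries than in any control, and library C, which sat near the controls in most levels, stood with A and B here.

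*P2ry12* relative to *Tmem119* was 1.13, 1.25 and 1.06 in controls and 0.647, 0.689 and 0.861 in *AP1AR-DT* OE mice. *P2ry12* relative to *Trem2* was 2.17, 3.01 and 2.62 in controls and 1.49, 1.52 and 1.88 in *AP1AR-DT* OE mice. *Csf1r* relative to *C1qb* was 1.27, 1.34 and 1.22 in controls and 1.03, 1.07 and 1.13 in *AP1AR-DT* OE mice. Each of these, too, was lower in all *AP1AR-DT* OE libraries.

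Of the 36 pairs of the 9 genes, 15 had ratios that did not overlap between groups, 6 of them with *P2ry12* and 5 with *Cx3cr1*. Over all 100500753 pairs of genes with a mean log2 CPM above 2, 23.5% did not overlap. Such a ratio is therefore common in these libraries, and 15 of 36 is read against that share. *Aif1*, with a mean of 1.82 CPM, lies below that limit. The share does not cover pairs with *Aif1*, whose ratios all overlapped. With the GC correction 9 of the 36 did not overlap, and the share of all pairs after this correction was not computed. The ratios of *Cx3cr1* to *Tmem119*, *C1qa*, *C1qb* and *Trem2*, of *P2ry12* to *Trem2*, and of *Csf1r* to *C1qb*, *C1qc* and *Trem2* remained lower and apart, while the ratios of *P2ry12* to *Tmem119* and to the chains of C1q overlapped, and the *C1qb* to *Trem2* ratio came apart. The *Cx3cr1* to *Tmem119* ratio after the correction was 2.03, 2.16 and 2.08 in controls and 1.86, 1.76 and 1.71 in *AP1AR-DT* OE mice.

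**Figure D3:**
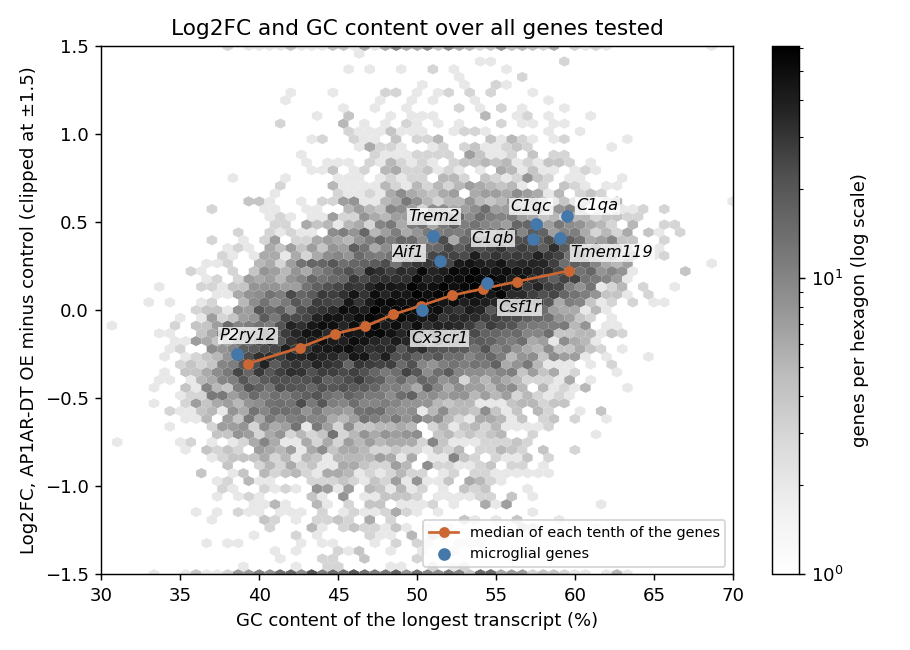
Log2FC (AP1AR-DT OE minus control, clipped at the edges of the axis) against GC content (percent, longest transcript), with all genes tested as grey hexagons shaded by number, medians of 10 equal bins of GC content in orange and the 9 microglial genes in blue. The medians climb from -0.30 to 0.22 with GC content, and *P2ry12* and *C1qa* sit near opposite ends.

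GC content moved with the Log2FC over the whole table. Among the bin of genes poorest in GC, 1 of 10 equal bins, the median Log2FC was -0.30, with 0.458% called higher and 22.0% lower. In the richest bin the median was 0.22, with 17.5% called higher and 1.33% lower. The 9 genes spread over this range. *P2ry12*, at 38.6% GC, was in the poorest bin, *Tmem119* (59.1%) and *C1qa* (59.5%) in the richest, and *C1qb* (57.4%) and *C1qc* (57.5%) in the next richest, where 10.5% of genes were called higher and the median was 0.16. *Trem2* (51.0%) and *Cx3cr1* (50.3%) fell in the sixth bin, where the median was 0.025 and 4.08% were called higher. *Cx3cr1*, at -0.0011, lay close to the median of its bin. *Trem2*, at 0.42, lay above it, but the mean GC content over its transcripts, 56.2%, is within the limits of the bin that holds *C1qb* and *C1qc*.

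**Figure D4:**
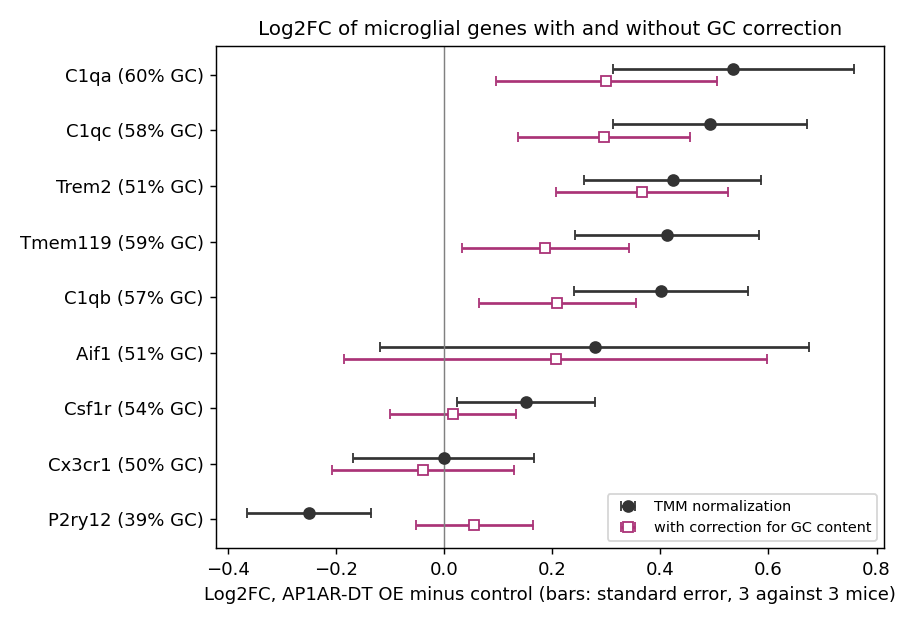
Log2FC (AP1AR-DT OE minus control) of the 9 microglial genes with TMM normalization (filled circles) and with the added correction for GC content (open squares), with bars of 1 SE (3 against 3 mice). The correction lowers *C1qa* from 0.54 to 0.30 and raises *P2ry12* from -0.25 to 0.06, both computed with the GC content of the longest transcript.

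With the GC correction the chains of C1q had Log2FC of 0.30 (*C1qa*), 0.21 (*C1qb*) and 0.30 (*C1qc*), *Aif1* 0.21, *Csf1r* 0.02 and *Cx3cr1* -0.04. All 3 chains kept a positive sign in each of the 18 fits, with *C1qa* between 0.30 and 0.78, *C1qb* between 0.21 and 0.55 and *C1qc* between 0.30 and 0.65, as did *Trem2* (0.26 to 0.54) and *Tmem119* (0.16 to 0.57). Whether the dependence on GC content arose in the libraries or in the tissue was not tested.

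Other microglial identity genes were described as a list of 35, of which 3 were called higher and 0 lower, beside 5.10% and 7.15% of all genes. Their median Log2FC was 0.15, and 0.17 with the GC correction. With that correction 3 were called higher and 0 lower, beside 2.77% and 4.40% of all genes. Among the genes called, *Mertk*, a receptor for the engulfment of dying cells, had a Log2FC of 0.32 and the lysosomal membrane gene *Laptm5* one of 0.33. With the GC correction *Mertk* was again called, at 0.35, and *Laptm5* was not, at 0.17. With 1 library left out, *Mertk* was called only without control 1, and *Laptm5* only without control 3 or library C. *Mertk* was measured at 27.4, 20.9 and 23.3 CPM in controls and 32.3, 28.1 and 29.1 in *AP1AR-DT* OE mice, with no overlap between groups. The defining genes *Spi1*, which encodes PU.1 (Log2FC 0.17, and -0.05 with the GC correction), and *Itgam*, a subunit of complement receptor 3 (0.29), did not pass. *Sall1*, a transcription factor gene of microglial identity also expressed elsewhere in the brain, ran from 39.8 to 45.3 CPM in controls and from 38.8 to 49.0 in *AP1AR-DT* OE mice. All 35 were expressed above the filter, so the label of the 9 genes as microglial stands beside a full set of other markers. Scaled to these 35 genes instead of all genes, which moved the median Log2FC of all genes to -0.12, only *C1qa* of the 9 was called. It was called higher, as were 16.3% of all calls with this scaling, beside 41.6% without it. The groups of 6 of the 9 did not overlap. The share of all genes with groups apart was not computed with this scaling, so 6 of 9 has no background here.

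Genes of ligands and signalling partners of the 9, 18 of 20 tested, included 2 called higher (*Cx3cl1* and *Il34*) and 1 lower. Over all genes 5.10% were called higher and 7.15% lower. The median Log2FC of the list was 0.23. The lower one was *Itgb8*, a subunit of the integrin that activates latent TGF-β, with means of 89.2 ± 13.2 CPM in controls and 58.7 ± 9.37 in *AP1AR-DT* OE mice (Log2FC -0.60, edgeR adjusted *P* = 0.295). With the GC correction 0 genes of this list were called higher, and *Itgb8* was again called lower, beside 2.77% higher and 4.40% lower over all genes.

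Of 33 other complement genes tested, 2 were called higher and 3 lower, near the 5.10% and 7.15% of all genes, with a median Log2FC of 0.06. *C3*, the central component cleaved downstream of C1q, was called lower from few counts, at 1.57, 3.80 and 3.14 CPM in controls and 1.32, 0.612 and 1.52 in *AP1AR-DT* OE mice (Log2FC -1.30 ± 0.46, edgeR adjusted *P* = 0.296). Its groups did not overlap, with control 1 just above library C. The regulator gene *Cd55*, which limits complement on cell surfaces, was lower (Log2FC -1.08), and the neuronal genes of complement control domain proteins *Csmd1* (0.39) and *Sez6* (0.78) were higher. With the GC correction *Sez6* came to 0.55 and was not called.

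Partners of C1q that complete the C1 complex were near the limit of detection, and both have close paralogs that make their counts uncertain. *C1ra* ran from 0 to 2.00 CPM and *C1s1* from 0 to 1.5 in controls, and *AP1AR-DT* OE libraries lay inside those ranges. *C4b*, the next substrate in the classical pathway, ran from 18.3 to 24.1 CPM in controls and 17.4 to 23.9 in *AP1AR-DT* OE mice. *Itgb2*, the other subunit of complement receptor 3, had a Log2FC of 0.34 that did not pass, and *C3ar1*, the receptor gene for a C3 fragment, ran from 2.29 to 3.39 CPM in controls and 1.58 to 3.95 in *AP1AR-DT* OE mice.

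Of 26 genes of the disease-associated microglial state tested, 0 were called higher and 1 lower, near the 5.10% and 7.15% of all genes, and the median was 0.08. The lower one was *Hif1a*, a hypoxia-responsive transcription factor gene (Log2FC -0.40), which was not called with the GC correction (-0.17). Of 15 inflammatory cytokine and receptor genes tested, 1 was called higher, the chemokine gene *Ccl12*, at 0, 0 and 0.10 CPM in controls and 0.283, 0.223 and 0.305 in *AP1AR-DT* OE mice, levels of a few counts. *Il1b*, *Tnf*, *Il6*, *Ccl2*, *Ccl3*, *Ccl4* and *Nos2* were too low to be tested, with at most 30 counts in any library. Interferon-stimulated genes had 0 higher and 1 lower (*Rsad2*) of 19, with a median of 0.07.

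**Figure D5:**
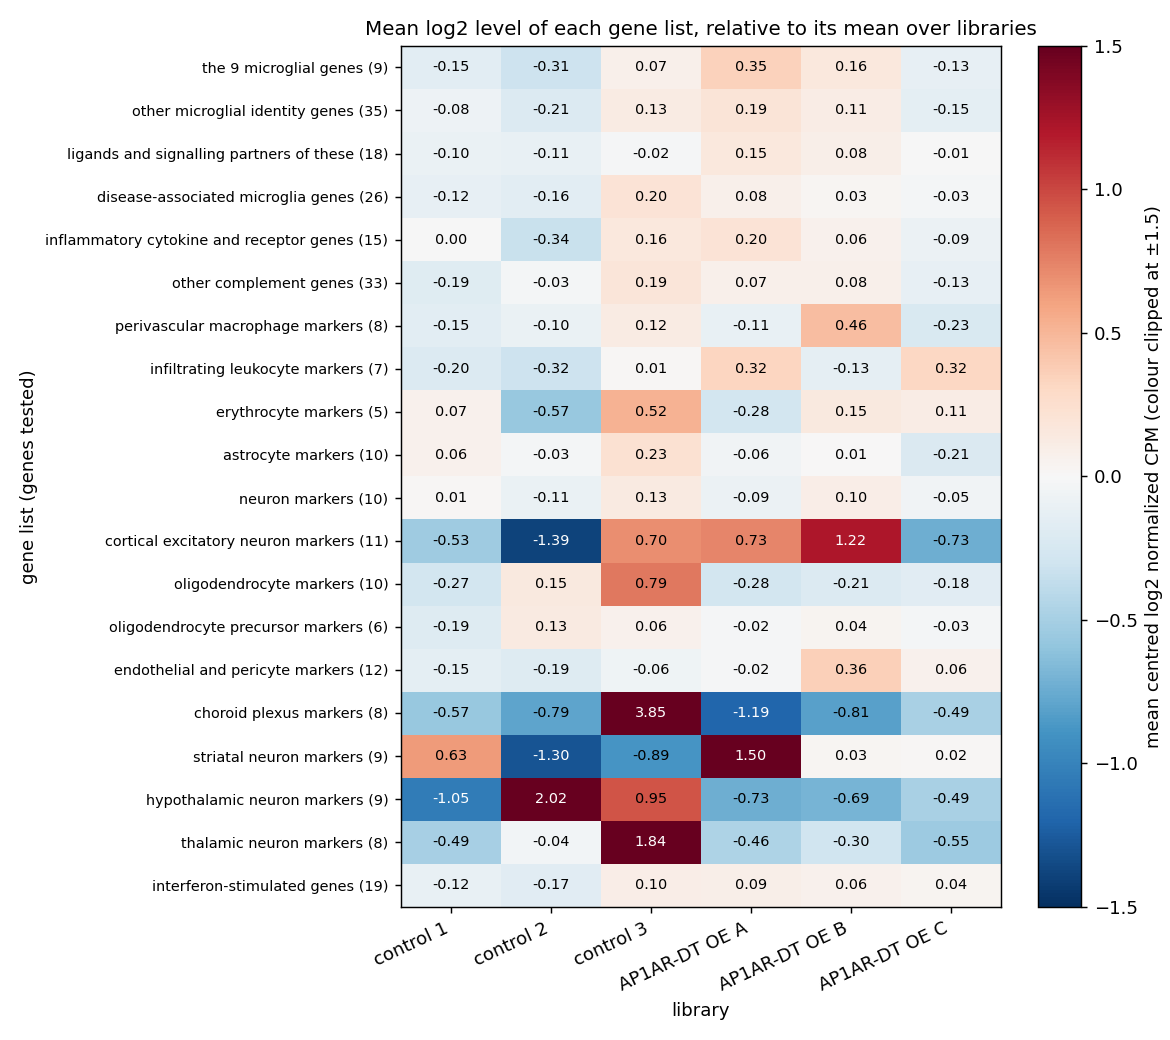
Mean log2 normalized CPM of each gene list in each library, relative to the list's mean over the 6 libraries, with the number of genes tested in parentheses and colour limits at 1.5 on either side of 0. The 9 microglial genes run from -0.31 in control 2 to 0.35 in library A, a smaller span than the regional lists show.

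Markers of other cells were examined beside these results. Perivascular macrophage markers had 0 of 8 called, and their summed level was 8.65 to 11.2 CPM in controls and 9.93 to 15.2 in *AP1AR-DT* OE mice, with *Mrc1* at 0.358 to 1.85 CPM and *Lyve1* at 0.0572 to 1.19 over all libraries. Infiltrating leukocyte markers had 1 of 7 called higher, *Jchain*, a plasma cell gene, with summed levels of 3.05 to 5.28 CPM in controls and 5.01 to 11.8 in *AP1AR-DT* OE mice, and 9 of the 16 on that list were too low to be tested. Their part in the microglial differences was not tested.

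Endothelial and pericyte markers had 3 of 12 called higher (*Cldn5*, *Ly6c1* and *Vtn*) and a median Log2FC of 0.29. Astrocyte markers had 2 of 10 called lower (*Sox9* and *Aqp4*), oligodendrocyte markers 4 of 10 lower (*Ermn*, *Ugt8a* and *Mobp* among them), oligodendrocyte precursor markers 0 of 6 and erythrocyte markers 0 of 5. The summed CPM of oligodendrocyte markers was 5282, 6752 and 11161 in controls and 5314, 5399 and 5402 in *AP1AR-DT* OE mice. Control 3 was thus the highest, and control 1 lay below every *AP1AR-DT* OE library. *Aqp4* was also highest in control 3, at 125, 130 and 238 CPM in controls. Neuron markers had 1 of 10 in each direction (*Rbfox3* higher and *Map2* lower). Of the regional lists, choroid plexus markers had 6 of 8 called lower. Control 3 held 5046 summed CPM of these and the other libraries 109 to 145. Hypothalamic markers had 4 of 9 called lower, with control 2 at 658 and the other libraries at 64.4 to 103. Thalamic markers had 2 of 8 called lower, with control 3 at 1385 and the other libraries at 446 to 739. Striatal markers had 0 of 9 called, but their median Log2FC was 0.96, with all 9 above 0. Their summed CPM was 405 to 1504 in controls and 942 to 2668 in *AP1AR-DT* OE mice. Of all genes tested, 5.10% were called higher and 7.15% lower. In none of the lists did a gene pass edgeR's adjusted *P* under 0.05. Of 36 called genes of these lists outside the 9 that were refitted, 8 were called with each library left out in turn. These were *Itgb8*, *Csmd1*, *Rsad2*, *Cldn5*, *Sox9*, *Ermn*, *Slc17a6* and *Avp*. The groups of *Slc17a6* and *Avp* overlapped, and both were highest in controls 2 and 3, the libraries with high hypothalamic and thalamic markers. The share over all called genes was not computed.

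The order of the libraries in the 9 genes can be set beside that in cortical excitatory neuron markers. Of these markers 1 of 11 was called higher (*Cux2*) and 1 lower (*Rorb*). Their median Log2FC was 0.59, and 0.54 with the GC correction, and 10 of the 11 were above 0. The mean of the 9 genes, relative to the mean over libraries, was -0.15, -0.31 and 0.07 log2 units in controls and 0.35, 0.16 and -0.13 in *AP1AR-DT* OE mice. The cortical list gave -0.53, -1.39 and 0.70 in controls and 0.73, 1.22 and -0.73 in *AP1AR-DT* OE mice. Controls 1 and 2 and library C were below 0 in both, and control 3 and libraries A and B above 0 in both. The highest library differed, A for the 9 genes and B for the cortical list. Such signs were not particular to the cortical list. Other microglial identity genes, inflammatory genes, disease-associated genes and other complement genes had them too. The part of tissue composition in the microglial values was not tested.

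Among 14195 genes with enough counts, *Myoc* (Pearson *r* 0.985), *Mkrn1* (0.983), *Clasrp* (0.982) and *Slc16a3* (0.982) were among the 5 whose levels ran most closely with the mean of the 9 over the 6 libraries. With 6 libraries and so many candidates, high values of *r* are given as a description. *Mkrn1* was measured at 76.4, 68.2 and 82.1 CPM in controls and 95.3, 85.8 and 78.4 in *AP1AR-DT* OE mice, and like the mean of the 9 it was highest in library A and lowest in control 2. None of these 4 was called between the groups.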

How the data were processed

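RNA-seq libraries of brain tissue from 3 control and 3 *AP1AR-DT* OE mice were analysed. Per the paper's methods, the authors ran FastQC, aligned reads to GRCm38 using Bowtie2 with its defaults, and extracted whole-number counts per gene from StringTie runs on the GENCODE annotation. The authors deposited these counts without normalization. The submitters' processing notes instead name TopHat2 2.0.4, HTSeq, Cuffdiff, edgeR 2.6.12 and mm9, and the difference could not be resolved here. If the paper's route made the table, pairs over exon junctions would map less often, since Bowtie2 does not split reads at introns. The table also holds the authors' own comparison, with mean normalized count, log2 fold change, standard error, score and *P*-values, which was not used.

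Groups came from the sample labels. Counts were tested in R 4.3.3 with edgeR 4.0.16 over all 21844 genes passing filterByExpr, with TMM factors, the two-sided quasi-likelihood F-test and Benjamini-Hochberg adjustment. No counts were left out as naming no gene. Genes were called at *P* under 0.05 and |Log2FC| above 0.32, the thresholds of the study. Normalized CPM used TMM factors, and permutation tests used log2 values with 0.5 CPM added. *P*-values set the difference between groups against the spread between the libraries of these mice, which includes any difference in the tissue taken. GC and length corrections were offsets from natural splines (5 degrees of freedom), fitted per library on 13990 genes whose mean log2 CPM exceeded 2. Alternatives used DESeq2 1.42.0 and limma 3.58.1, other scalings and filters, and each library left out. Scripts were tested on simulated data. Positions, GC content and lengths are from GENCODE vM21 on GRCm38, which held 52133 of the 52390 identifiers. The table's own coordinates equal the annotation's for 1546 genes and were not used. No stretch of 100 bases of the 9 genes occurs in another gene's transcripts. Promoters are from RefSeq, GRCm38.p6.

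The 9 genes and all lists were chosen with earlier results of these data known. Named genes are the 9, a fixed set of partners and marker genes, and list genes called, up to the 5 with the smallest *P* in each list, and a few genes under this rule are not reported here. Figures and tables used Python 3.11.15, pandas 2.3.3, scipy 1.17.1 and matplotlib 3.10.9.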

Additional observations from a re-analysis of the deposited data

How the results depend on the processing

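The call of 5 higher genes among the 9 was the same with DESeq2, its size factors, library totals, upper quartile factors, limma-voom and both other filters. It fell to 2 with a transcript length correction, to 1 when scaled to the other microglial genes, and to 0 with the correction for GC content of the longest or of the mean transcript, and leaving out 1 library gave 0 to 5. The number of the 9 with groups apart was 3, became 1 with the GC correction and 6 with microglial scaling. The share of all genes with groups apart, 22.4%, was computed without either of these. The median Log2FC of the 9 ran from 0.24 to 0.54 with 1 library left out, and none of the 9 had an adjusted *P* under 0.05 in any of the 18 fits. Over all genes, 1566 and 1568 were called with the 2 GC corrections, the second chosen after the data were seen, against 2675, and 1430 to 3508 with 1 library left out. At adjusted *P* under 0.05, DESeq2 called 455 genes and leaving out 1 library gave 0 to 13 with edgeR. Of all calls 41.6% were higher, 16.3% when scaled to microglial genes and 52.2% without control 3.

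Signs turned for *Cx3cr1*, to a Log2FC of 0.0053 with DESeq2, 0.0054 with its size factors, 0.00021 with library totals, 0.0061 with upper quartile factors, 0.0077 with no filter, 0.028 with the length correction and 0.0028 with the mean GC correction, and ran from -0.17 to 0.13 with 1 library left out. *P2ry12* turned to 0.056 and 0.051 with the GC corrections, *Spi1* to -0.054 with the GC correction, and *Clasrp* to -0.011 and -0.058 with the GC corrections. *Kcne2*, a choroid plexus gene, ran from -6.35 to 0.32 with 1 library left out, the positive value without control 3. The cause of these turns was not tested. No paired analysis was possible because the *AP1AR-DT* OE columns carry no mouse numbers and the labels of the groups share fewer than 2 numbers.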
